A study of Mus musculus with 96 samples.

Results

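Complex I, the NADH:ubiquinone oxidoreductase of the mitochondrial respiratory chain, was followed through its nuclear-encoded subunit genes. The members were the genes whose symbol begins with Ndufa, Ndufb, Ndufc, Ndufs or Ndufv followed by a digit, and each was represented by its transcript row with the highest mean over all 96 libraries. The rule found 37 genes among the 29072 gene symbols of the deposited table, and 36 of them are described as members. Of these 36, 34 encode complex I subunits. Ndufa4, which the rule also takes, encodes a protein now assigned to cytochrome c oxidase (complex IV), and Ndufa4l2 encodes its hypoxia-inducible paralogue. Ndufab1, the mitochondrial acyl carrier protein and also a complex I subunit, does not match the rule and is given beside the members.

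Complex I takes electrons from NADH, passes them along flavin and iron-sulfur clusters to ubiquinone, and pumps protons across the inner membrane. Its catalytic core is built from nuclear-encoded subunits in the arm that reaches into the matrix and from subunits encoded in the mitochondrial genome in the membrane arm, and the accessory subunits wrap this core. Brown adipocytes are packed with mitochondria and burn fuel for heat through uncoupling protein 1 (Ucp1), which lets protons flow back without making ATP.

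By role the subunits described were the NADH-module core Ndufv1, Ndufv2 and Ndufs1, which oxidise NADH, and the ubiquinone-module core Ndufs3, Ndufs7 and Ndufs8, which pass electrons to ubiquinone. The accessory subunits of the matrix (peripheral) arm were Ndufa2, Ndufa5, Ndufa6, Ndufa7, Ndufa9, Ndufa12, Ndufs4, Ndufs6 and Ndufv3. Those counted with the proximal membrane arm were Ndufa1, Ndufa3, Ndufa8, Ndufa10, Ndufa11, Ndufa13, Ndufc1, Ndufc2 and Ndufs5, and the distal membrane arm had the 10 Ndufb genes Ndufb2 to Ndufb11.

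RNA was sequenced from interscapular brown fat (iBAT) and inguinal white fat (iWAT) of male C57BL/6J mice after 4 weeks in 3 conditions. In each tissue the groups were Ucp1-KO and wild-type (WT) mice on control diet at 20 °C, KO and WT mice on high fat diet at 30 °C, and KO and WT mice on control diet at 30 °C, with 8 libraries in each of the 12 groups and separate animals within a group. The control diet held 13% and the high fat diet 48% of its energy as fat. Ucp1-KO mice lack a working uncoupling protein 1, and the labels name no tissue-specific deletion. The labels do not match the fat depots of an animal to each other and give no batch. In the text, "20 °C" and "30 °C" stand for control diet at that temperature and "high fat diet" for that diet at 30 °C.

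Libraries held 8.91 to 19.2 M reads each (M, mega). The targeted gene Ucp1 in iBAT had 867 to 1145 RPKM (reads counted on a transcript, divided by its length in kilobases and by the library's reads in M) in KO mice against 2428 to 4550 RPKM in WT mice at 20 °C. On high fat diet it had 546 to 964 RPKM in KO mice against 4858 to 7710 RPKM in WT mice, and at 30 °C 565 to 1112 RPKM in KO mice against 7328 to 9281 RPKM in WT mice. No iBAT ranges of KO and WT mice overlapped. In WT iBAT the level was lower at 20 °C than at 30 °C. The reason was not tested, and temperatures are taken as the labels give them. In iWAT the libraries labelled KO had 196 to 597 RPKM against 23.9 to 281 RPKM in those labelled WT at 20 °C, 5.40 to 28.6 against 0.258 to 32.7 RPKM on high fat diet and 34.1 to 125 against 4.66 to 117 RPKM at 30 °C, so they were not lower. The deleted stretch of Ucp1 is not named, and reads from the rest of the allele would still be counted, so Ucp1 does not check the labels in iWAT. The 9 brown adipocyte markers other than Ucp1 summed to at least 2097 RPKM in every iBAT library, to 1769 to 4197 RPKM in KO iWAT at 20 °C and to at most 930.2 RPKM in every other iWAT library. None of them was at 0 throughout a group. Skeletal muscle markers ranged from 3.98 to 11720 RPKM over the libraries, with 18 libraries above 2000 RPKM. Within KO iBAT at 30 °C, libraries 30, 31 and 32 stood apart from the other 5 on the second component of within-group variation. Their scores were 0.167 to 0.334 against -0.210 to -0.120, in genes that are not members. Counts of members that use this group are given with and without libraries 30 to 32, a choice made after seeing the data. Other iBAT groups split on this component too. In WT iBAT at 20 °C libraries 5, 6 and 8 scored 0.126 to 0.249 and the others at most -0.076. In WT iBAT on high fat diet libraries 35, 37 and 38 scored 0.11 to 0.293 and the others at most -0.065. These WT libraries were not left out in any setting.

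Promoter sequences upstream of the members' starts were searched for motifs. RefSeq windows on GRCm38.p6 were matched for 32 of the 36 members (not for Ndufa2, Ndufa4l2, Ndufb9 and Ndufs1), and the 250 bases before each start were searched on both strands for 4 motifs. The letters searched were GCGCANGCG for NRF1, CCGGAAG for ETS factors, AAGATGGCG for YY1 and TNAAGGTCA for ERR. The NRF1 letters occurred in 6 members (18.8% of those matched, against 5.86% of all 27025 genes with a window): Ndufa5, Ndufa8, Ndufa11, Ndufb4, Ndufs5 and Ndufs6. The ETS letters occurred in 3 members, Ndufb6, Ndufb7 and Ndufs3 (9.38% against 7.83% of all genes), and the ERR letters in Ndufb4 alone (3.12% against 1.3%). The YY1 letters were in no member window and in 0.71% of all genes. Any of the 4 motifs occurred in 9 of the 32 members matched, beside 14.3% of all genes with a window. In Ndufa11 the NRF1 letters on the plus strand overlapped those on the minus strand. A match is a description of the letters and not a bound site.

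The 120 bases before the start are printed 5′ to 3′, with motif matches in capitals, for Ndufa8 and Ndufb4, which hold several NRF1 matches, for Ndufs3 and Ndufb7, whose ETS match lies close to the start, and for Ndufv1, the member with the largest genotype difference in iBAT at 30 °C and on high fat diet. They lie at chr2:36049339-36049458 (minus strand) for Ndufa8, chr16:37654369-37654488 (minus strand) for Ndufb4, chr2:90904722-90904841 (minus strand) for Ndufs3, chr8:83566638-83566757 (plus strand) for Ndufb7 and chr19:4012756-4012875 (minus strand) for Ndufv1.
Ndufa8: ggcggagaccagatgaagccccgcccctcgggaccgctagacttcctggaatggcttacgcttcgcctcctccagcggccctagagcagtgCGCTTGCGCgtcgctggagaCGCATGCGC
Ndufb4: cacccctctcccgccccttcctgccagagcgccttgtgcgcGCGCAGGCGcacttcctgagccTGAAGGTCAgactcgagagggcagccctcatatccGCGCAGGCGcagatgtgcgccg
Ndufs3: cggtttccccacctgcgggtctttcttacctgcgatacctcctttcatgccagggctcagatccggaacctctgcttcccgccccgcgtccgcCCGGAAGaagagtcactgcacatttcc
Ndufb7: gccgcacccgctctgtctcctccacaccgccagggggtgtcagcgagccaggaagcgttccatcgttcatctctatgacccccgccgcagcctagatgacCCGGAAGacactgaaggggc
Ndufv1: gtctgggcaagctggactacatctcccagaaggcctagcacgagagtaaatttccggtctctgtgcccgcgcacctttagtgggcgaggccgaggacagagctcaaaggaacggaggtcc
The capitals mark 2 NRF1 matches in Ndufa8, both on the minus strand, 2 of the 3 NRF1 matches and the ERR match in Ndufb4, all on the plus strand, and the ETS match in Ndufs3 and in Ndufb7. None of the 4 motifs was found in the 250 bases before Ndufv1.

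Every member had at least 0.5 RPKM in every library, so all 36 passed the filter on low values. In WT iBAT at 30 °C the 36 genes ranged from 4.90 ± 0.536 RPKM for Ndufa4l2 to 779 ± 125 RPKM for Ndufb8 (mean ± SD, n = 8), a membrane-arm accessory subunit, and the lowest true subunit was Ndufb4 with 32.0 ± 8.18 RPKM. In WT iWAT at 30 °C they ranged from 4.84 ± 0.875 RPKM for Ndufa4l2 to 163 ± 20.3 RPKM for Ndufa4. The 36 member rows together made up 2.25% of the summed RPKM in WT iBAT and 0.679% in WT iWAT at 30 °C. These levels are those of 1 transcript row for each gene and are not protein amounts.

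Inside a group the members moved together from library to library. The correlation of a member with the mean of the others, over the 96 libraries after removal of group means, had a median of 0.92 over the 35 members other than Ndufa4l2 and ranged from 0.47 for Ndufs1 to 0.98 for Ndufb9. For Ndufa4l2 it was -0.006. Within-group SDs on the log2(RPKM + 1) scale ran from 0.16 for Ndufs1 to 0.32 for Ndufb4 among these 35 genes. The correlated points share library, depth and scaling, so counts of members do not count independent observations.

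Groups were ordered by the mean log2(RPKM + 1) over the 36 members. WT iBAT at 20 °C came highest (7.86 ± 0.24, mean ± SD, n = 8), followed by KO iBAT at 20 °C (7.77 ± 0.18), WT iBAT at 30 °C (7.63 ± 0.17) and WT iBAT on high fat diet (7.63 ± 0.21). KO iBAT at 30 °C (7.36 ± 0.31) and KO iBAT on high fat diet (7.16 ± 0.23) came next. The iWAT groups followed with KO at 20 °C (6.87 ± 0.25), WT at 20 °C (6.46 ± 0.26), KO at 30 °C (6.45 ± 0.15), WT at 30 °C (5.89 ± 0.11), WT on high fat diet (5.88 ± 0.18) and KO on high fat diet (5.88 ± 0.16). Neighbours in this order overlapped in their library ranges, except KO iWAT at 30 °C (6.23 to 6.70) and WT iWAT at 30 °C (5.76 to 6.03). KO iBAT at 30 °C reached up to 7.92 in libraries 30 to 32 (7.59 to 7.92), against 7.06 to 7.24 in its other 5 libraries. WT iBAT at 20 °C had 8.07 to 8.25 in libraries 5, 6 and 8, against 7.65 to 7.76 in its other 5.

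**Figure D1:**
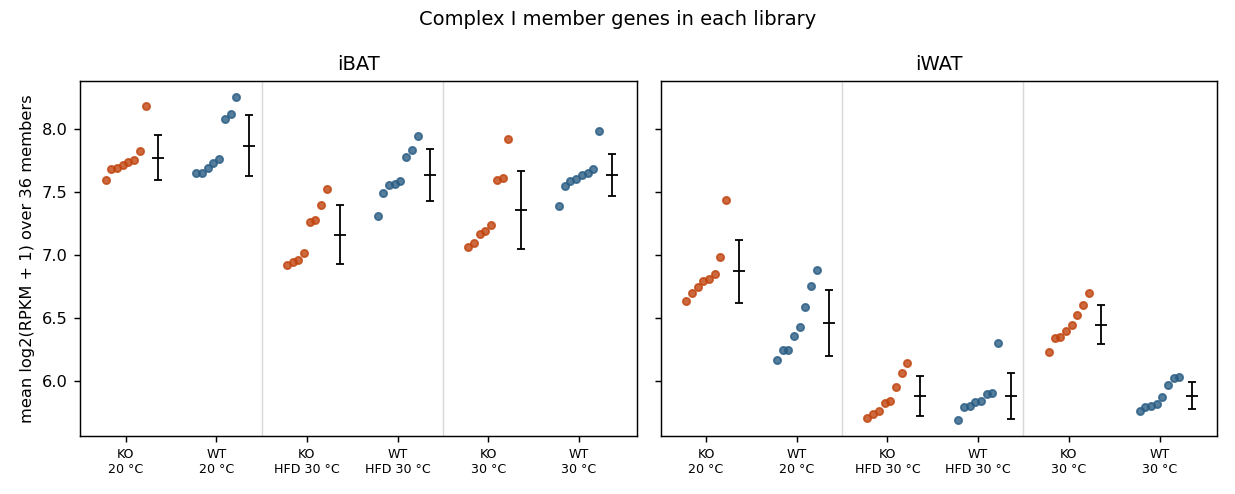
Mean log2(RPKM + 1) over the 36 members in each of the 96 libraries, by tissue, condition and genotype; points are libraries and bars the mean ± SD of 8. The KO mean sits below the WT mean in iBAT at 30 °C and on high fat diet and above it in iWAT at 20 °C and 30 °C. Library ranges of the genotypes overlap in each of these except iWAT at 30 °C. The 2 genotypes lie together in iWAT on high fat diet.

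In iBAT, knockout of Ucp1 went with lower complex I subunit RNA at 30 °C. Of the 36 members, 15 fell and none rose (limma-trend on log2(RPKM + 1), Benjamini-Hochberg adjusted p under 0.05 over all 14807 genes tested), while 10.5% of all genes were called lower and 54.2% higher in KO iBAT. The members' median difference was -0.22 on the log2 scale, beside 0.27 for all genes. Ndufs3, Ndufs7 and Ndufs8 of the ubiquinone-module core fell, as did 2 of the 3 NADH-oxidising core subunits, 2 of 9 peripheral-arm, 2 of 9 proximal and 5 of 10 distal membrane-arm accessory subunits. The remaining member called was Ndufa4.

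Ndufv1, the flavin-bearing subunit where NADH is oxidised, had 187 to 301 RPKM (median 225) in KO against 403 to 508 RPKM (median 448) in WT iBAT at 30 °C. No KO library reached the lowest WT library. The difference was -0.93 ± 0.10 on the log2 scale (limma adjusted p = 1.9e-11), and an exact two-sided permutation test gave 1.6e-04, the smallest value it can give with 8 against 8 libraries. Ndufs1, the largest core subunit of the NADH module, had 112 to 161 RPKM (median 133) in KO against 188 to 218 RPKM (median 201) in WT (difference -0.61 ± 0.073, adjusted p = 1.1e-09). Its KO and WT ranges were also separate. Ndufv2, the remaining core subunit of the NADH module, was not called (difference -0.12 ± 0.13, adjusted p = 0.424). Ndufs3, a core subunit of the ubiquinone module, had 70.3 to 102 RPKM (median 75.4) in KO against 88.0 to 118 RPKM (median 102) in WT, with overlapping ranges (difference -0.36 ± 0.082, adjusted p = 1.6e-04).

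Differences of the accessory subunits ran from -0.77 for Ndufa10 to 0.091 for Ndufb4. Ndufa10, an accessory subunit of the proximal membrane arm, differed by -0.77 ± 0.091 (adjusted p = 8.7e-10), the second largest difference among members. Ndufa9, which helps join the matrix and membrane arms, had 140.4 to 230.2 RPKM (median 168) in KO against 212 to 286 RPKM in WT, with overlapping ranges. Ndufb8, a distal membrane-arm subunit, had 395 to 779 RPKM (median 450.1) in KO against 619 to 1043 RPKM (median 765) in WT, with overlapping ranges. Ndufs4, a peripheral-arm subunit whose loss causes Leigh-like disease in mice, had 97.1 to 203 RPKM (median 119) in KO against 127 to 178 RPKM (median 149) in WT and was not called (difference -0.23 ± 0.11, 95% interval -0.45 to -0.003). It had 154 to 203 RPKM in libraries 30 to 32 and 97.1 to 119.9 RPKM in the other 5, which lay wholly below WT. Without those 3, the highest KO libraries for this gene, it was called (difference -0.47 ± 0.10, adjusted p = 6.8e-05). They were left out after the data were seen, so this call is no independent support. At the other end Ndufb4 (0.091), Ndufa11 (0.05) and Ndufa2 (0.045) had differences near or above 0, none of them called.

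Libraries 30 to 32 lay closer to WT than the other 5 KO libraries for many members. For Ndufb8 they had 656 to 779 RPKM against 395 to 461 RPKM in the other 5, and for Ndufv1 219 to 301 against 187 to 253 RPKM. Without them 30 members were lower in KO iBAT at 30 °C, with a median of -0.46. Of all 14720 genes then tested, 1803 were lower and 7729 higher. Ndufa10 then differed by -0.89 ± 0.10, Ndufs3 by -0.48 ± 0.086 and Ndufa4 by -0.82 ± 0.13. Libraries 30 to 32 had the highest members' means of their group, so leaving them out favours lower calls in KO. Macrophage markers summed to 323 to 888 RPKM in libraries 30 to 32 and 1323 to 2091 RPKM in the other 5, against 116 to 204 RPKM in WT iBAT at 30 °C. Brown adipocyte markers without Ucp1 summed to 2517 to 5010 RPKM in KO and 4129 to 5401 RPKM in WT, and of the 9 of them tested 1 was higher and 4 lower. Lymphocyte markers summed to 204 to 799 RPKM in KO and 101 to 217 RPKM in WT. White adipocyte markers summed to 14460 to 21700 RPKM in KO and 11100 to 13570 RPKM in WT, with 6 of 7 called higher and no overlap of the sums. Endothelial markers summed to 340.1 to 545 RPKM in KO and 278 to 372 RPKM in WT, with 6 of 8 called higher. Their part in the members' differences was not tested. In bulk tissue, fewer brown adipocytes and less subunit RNA per cell cannot be told apart.

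The scaling moved these counts. Of all genes called in iBAT KO against WT at 30 °C, 83.7% were higher on the deposited scale and 58.0% (42.0% after quantile normalization) after median-ratio scaling, which brought the median of all genes to 0.062. After that scaling 31 members were lower and 0 higher, with a median of -0.50. Of all 14807 genes, 3561 were then lower and 4913 higher. The sign of the members' median was the same on the deposited scale, after median-ratio scaling and after quantile normalization.

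On high fat diet 28 of the 36 members were lower in KO iBAT and none higher, beside 11.0% of all genes lower and 52.8% higher. Their median was -0.48 against 0.25 for all genes, and every member's difference was below 0. Ndufv1 had 183 to 339 RPKM (median 200.1) in KO against 377 to 473 RPKM (median 456) in WT (difference -0.98 ± 0.10, adjusted p = 4.9e-12). Ndufs3 had 58.3 to 83.0 RPKM (median 67.7) in KO against 86.2 to 123 RPKM (median 97.6) in WT, and no range overlapped for either gene. Ndufs1 had 112 to 183 RPKM (median 126) in KO against 174 to 222 RPKM (median 192) in WT, with overlapping ranges.

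Ndufa9 had 129 to 193 RPKM (median 143) in KO and 177 to 256 RPKM (median 210.3) in WT iBAT on high fat diet. Ndufb8 had 394 to 659 RPKM (median 468) in KO and 465 to 1038 RPKM (median 749) in WT (difference -0.59 ± 0.14, adjusted p = 4.9e-04). Ndufa10 (-0.87) and Ndufa1 (-0.82), accessory subunits of the proximal arm, had the largest differences after Ndufv1. The 8 members not called were Ndufa2, Ndufa7, Ndufa8, Ndufa11, Ndufa12, Ndufb4, Ndufc2 and Ndufs4, with differences of -0.35 to -0.14. After median-ratio scaling all 36 members were lower, with a median of -0.75, beside 3503 of all 14807 genes lower and 4441 higher. Of all calls, 55.9% (41.2% after quantile normalization) were then higher in place of 82.7%. Macrophage markers summed to 428 to 1551 RPKM in KO and 84.7 to 292 RPKM in WT, brown adipocyte markers without Ucp1 to 2097 to 3657 RPKM in KO and 3414 to 5400 RPKM in WT. Of the 9 brown adipocyte markers, 3 were called higher and 3 lower, with a median difference of 0.18. Lymphocyte markers summed to 288 to 3189 RPKM in KO and 105 to 248 RPKM in WT, with 9 of 9 higher and no overlap of the sums. White adipocyte markers summed to 14140 to 22230 RPKM in KO and 11250 to 17200 RPKM in WT, with 7 of 7 higher. Skeletal muscle markers reached 11040 RPKM in KO and 864 RPKM in WT, with 10 of 12 called higher and a median difference of 2.29. Whether these cell types set any of the differences was not tested.

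At 20 °C few members differed between the genotypes in iBAT. Ndufa1, Ndufa4, Ndufa4l2, Ndufa7 and Ndufb3 were lower in KO and none was higher, beside 13.1% of all genes lower and 24.7% higher, so the members' share of lower calls was near that of all genes. The largest was Ndufa1, with 272 ± 29.3 RPKM in KO and 417 ± 101 RPKM in WT (mean ± SD, n = 8 each; difference -0.59 ± 0.13, adjusted p = 4.1e-04). Ndufv1 had 404 to 448 RPKM (median 432) in KO and 399 to 537 RPKM (median 472) in WT, a difference of -0.12 with a 95% interval of -0.31 to 0.074. Ndufs1 had 205 to 257 RPKM (median 239) in KO and 205 to 246 RPKM (median 224) in WT. The ranges of both genes overlapped. The members' median was -0.045 against 0.057 for all genes. Macrophage markers summed to 79.6 to 298 RPKM in KO and 46.6 to 64.4 RPKM in WT, with 7 of 9 higher and 1 lower. Lymphocyte markers summed to 70.1 to 182.5 RPKM in KO and 52.1 to 66.0 RPKM in WT, with 3 of 9 higher. Neither pair of sums overlapped. Brown adipocyte markers without Ucp1 summed to 5580 to 7472 RPKM in KO and 4344 to 6287 RPKM in WT, with overlap. The part of these markers in the members' differences was not tested. After median-ratio scaling 8 members were lower, beside 2980 of all 14807 genes lower and 3030 higher. The members' share of lower calls was again near that of all genes. Of all calls, 50.4% (45.2% after quantile normalization) were then higher in place of 65.4%.

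**Figure D2:**
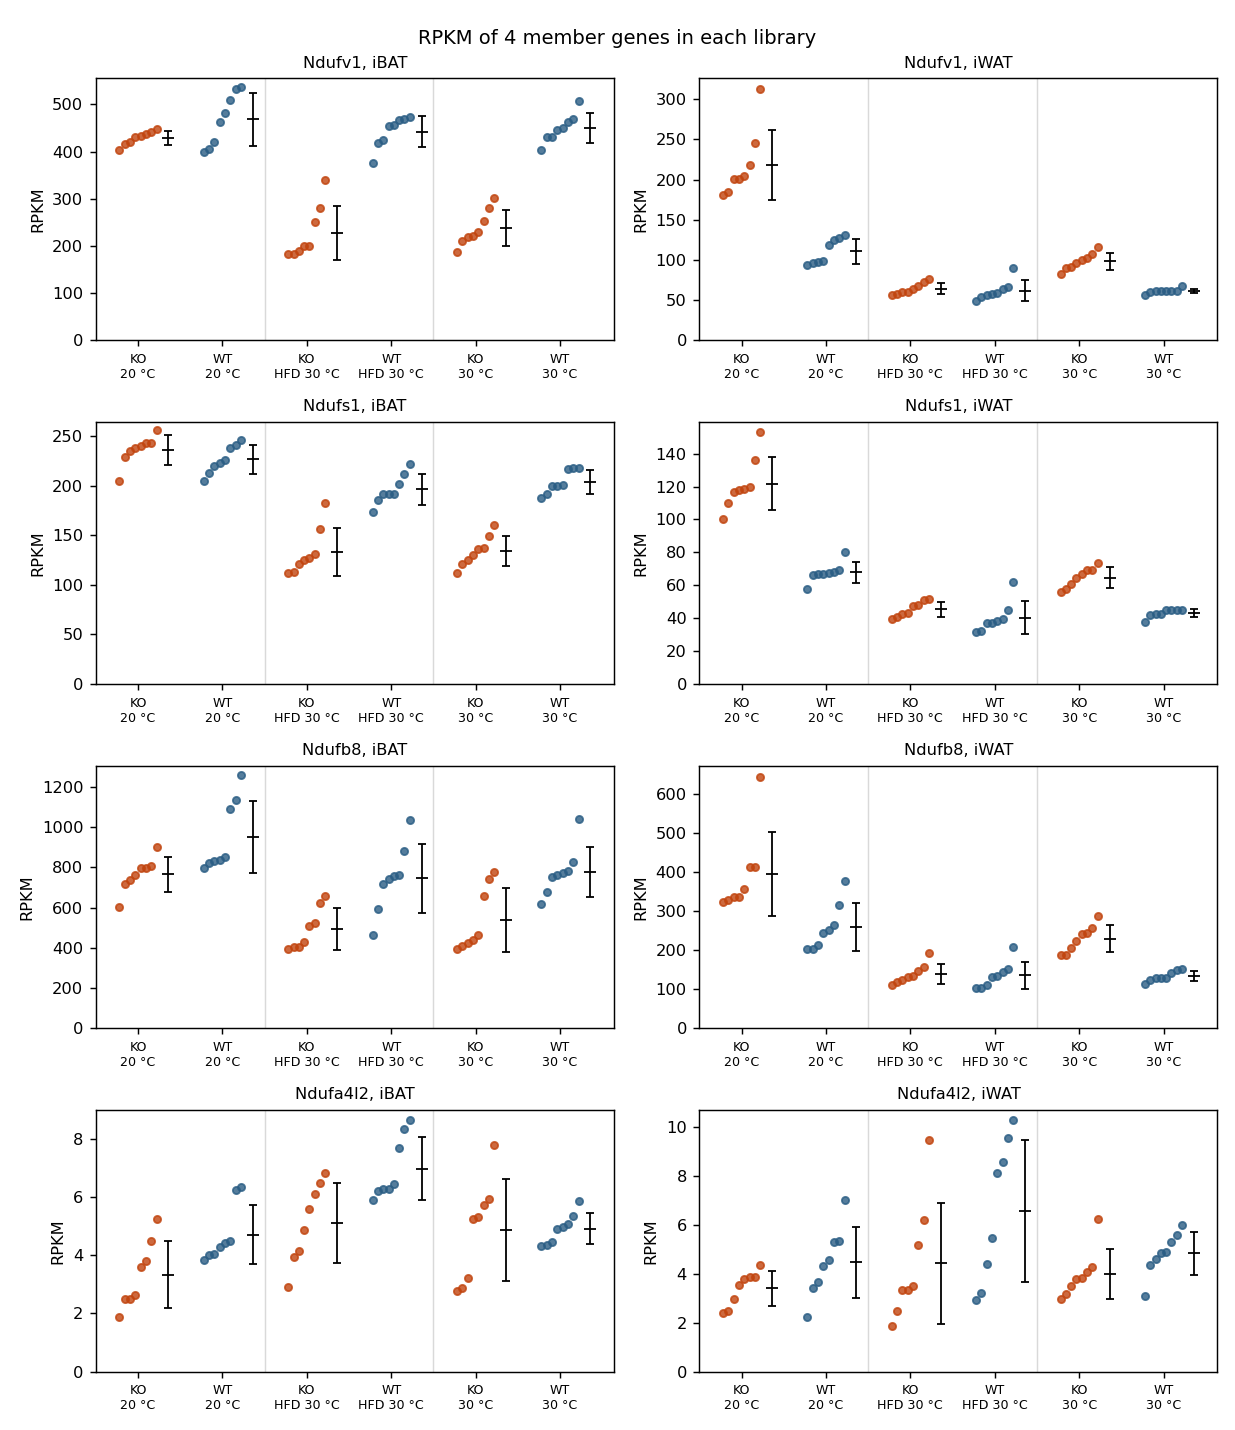
RPKM of Ndufv1, Ndufs1, Ndufb8 and Ndufa4l2 in every library, by tissue, condition and genotype; bars show the mean ± SD of 8 libraries. In iBAT Ndufv1 of KO libraries stays at or below 339 RPKM on high fat diet and at 30 °C, below every WT library, and reaches at least 404 RPKM at 20 °C.

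Housing at 20 °C compared with 30 °C was set against the genotype. In KO iBAT 26 members were higher at 20 °C and only Ndufa4l2 was lower, beside 13.9% of all genes higher and 59.5% lower. The members' median was 0.43 against -0.34 for all genes. The core subunits Ndufv1, Ndufv2, Ndufs1, Ndufs3, Ndufs7 and Ndufs8 rose, with 6 of 9 peripheral-arm, 7 of 9 proximal and 7 of 10 distal accessory subunits. Ndufs8, an iron-sulfur core subunit of the ubiquinone module, had the largest difference (0.95 ± 0.11), followed by Ndufv1 (0.87 ± 0.10) and Ndufa10 (0.85 ± 0.091), and Ndufs1 the smallest adjusted p (0.82 ± 0.073, adjusted p = 1.9e-13). Ranges at 20 °C lay wholly above those at 30 °C for Ndufv1, Ndufs1, Ndufs3 and Ndufa9, and overlapped for Ndufb8 (602 to 903 RPKM at 20 °C and 395 to 779 RPKM at 30 °C) and Ndufs4 (193 to 278 and 97.1 to 203 RPKM).

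Of the 9 members not called in KO iBAT, Ndufa2 (-0.05) and Ndufa7 (-0.033) were at or below 0. Without libraries 30 to 32 the count was 33 higher and 1 lower, with a median of 0.66. Of all 14720 genes then tested, 2218 were higher and 8510 lower. Leaving out instead the libraries with over 2000 RPKM of skeletal muscle markers gave 13 higher and 1 lower (median 0.29). Of all 14435 genes then tested, 1746 were higher and 8417 lower. After median-ratio scaling 34 were higher and 0 lower (median 0.78), beside 4053 of all 14807 genes higher and 5653 lower. Of all calls, 41.8% (53.2% after quantile normalization) were then higher in place of 18.9%. The fall of Ndufa4l2 was not called after median-ratio scaling, and its sign turned under quantile normalization. Macrophage markers summed to 79.6 to 298 RPKM at 20 °C and 323 to 2091 RPKM at 30 °C. Brown adipocyte markers without Ucp1 summed to 5580 to 7472 RPKM at 20 °C and 2517 to 5010 RPKM at 30 °C, and white adipocyte markers to 11430 to 13550 RPKM at 20 °C and 14460 to 21700 RPKM at 30 °C. None of these 3 pairs of ranges overlapped, and their part in the result was not tested.

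In WT iBAT 10 members were higher at 20 °C and none lower, beside 11.6% of all genes higher and 33.0% lower, and the median was 0.22 against -0.12 for all genes. Those called were the core subunits Ndufv2, Ndufs3 and Ndufs8, the peripheral subunits Ndufs4 and Ndufv3, the proximal subunits Ndufa1, Ndufa3, Ndufa11 and Ndufc1, and the distal subunit Ndufb4. Ndufs8 had 247 ± 37.8 RPKM at 20 °C and 159.5 ± 21.0 RPKM at 30 °C (mean ± SD, n = 8 each; difference 0.62 ± 0.11, adjusted p = 1.5e-05). Ndufs4 had 179 to 239 RPKM (median 206) at 20 °C and 127 to 178 RPKM (median 149) at 30 °C, with no overlap. Ndufv1 was not called, with 399 to 537 RPKM at 20 °C and 403 to 508 RPKM at 30 °C (difference 0.05, 95% interval -0.14 to 0.24). Macrophage markers summed to 46.6 to 64.4 RPKM at 20 °C and 116 to 204 RPKM at 30 °C, lymphocyte markers to 52.1 to 66.0 RPKM at 20 °C and 101 to 217 RPKM at 30 °C, and endothelial markers to 177 to 276 RPKM at 20 °C and 278 to 372 RPKM at 30 °C. These sums did not overlap between the temperatures. Brown adipocyte markers without Ucp1 summed to 4344 to 6287 RPKM at 20 °C and 4129 to 5401 RPKM at 30 °C, with overlap. Of the 10 brown adipocyte markers with Ucp1, 4 were called higher and 5 lower. The part of these markers in the members' difference was not tested. After median-ratio scaling 27 members were higher, beside 3062 of all 14807 genes higher and 3098 lower. Of all calls, 49.7% (49.7% after quantile normalization) were then higher in place of 26.1%.

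The difference between these temperature effects was tested as an interaction, KO effect minus WT effect. It was called above 0 for 7 members and below 0 for none, beside 11.9% of all genes above and 40.5% below. These were the NADH-module core subunits Ndufv1 (0.82 ± 0.13, adjusted p = 3.3e-06) and Ndufs1 (0.67 ± 0.10, adjusted p = 1.0e-06), the ubiquinone-module core subunits Ndufs3 (0.54) and Ndufs7 (0.53), and the accessory subunits Ndufa9 (0.59), Ndufa10 (0.70) and Ndufb2 (0.45). Core subunits gave 4 of the 7 (of 6 described) and accessory subunits 3 (of 28 described). A call also depends on a gene's spread. Ndufs1 (0.161), Ndufs3 (0.173), Ndufa10 (0.186), Ndufa9 (0.187) and Ndufv1 (0.193) had the smallest within-group SDs of all members. Whether core and accessory subunits differed was not tested. Of the core subunits described, those not called were Ndufv2 (0.073) and Ndufs8 (0.33), with 95% intervals of -0.30 to 0.44 and 0.006 to 0.65. The members' median was 0.10 against -0.24 for all genes. Without the muscle-rich libraries its sign turned (-0.021), with 6 members called above 0 and 0 below. Of all 14435 genes then tested, 1426 were above and 5749 below.

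Transcript length was set beside this interaction. Over the 35 members other than Ndufa4l2, the interaction and the length of the transcript row had a Spearman correlation of 0.53, given as a description across genes. The 7 called rows were 455 to 2661 bases long and the 28 others 315 to 2142 bases. Over all genes the median interaction was -0.225 among the 3101 genes with the shortest transcripts and -0.265 among the 3095 with the longest. The part of length in the members' difference was not tested. Without libraries 30 to 32 the interaction was called above 0 for 14 members and below 0 for 1, with a median of 0.35. Of all 14720 genes then tested, 1984 were above and 6141 below. After median-ratio scaling it was called above 0 for 10 and below 0 for 0, beside 2917 of all 14807 genes above and 4210 below. Of all calls, 40.9% (52.6% after quantile normalization) were then above 0 in place of 22.7%.

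**Figure D3:**
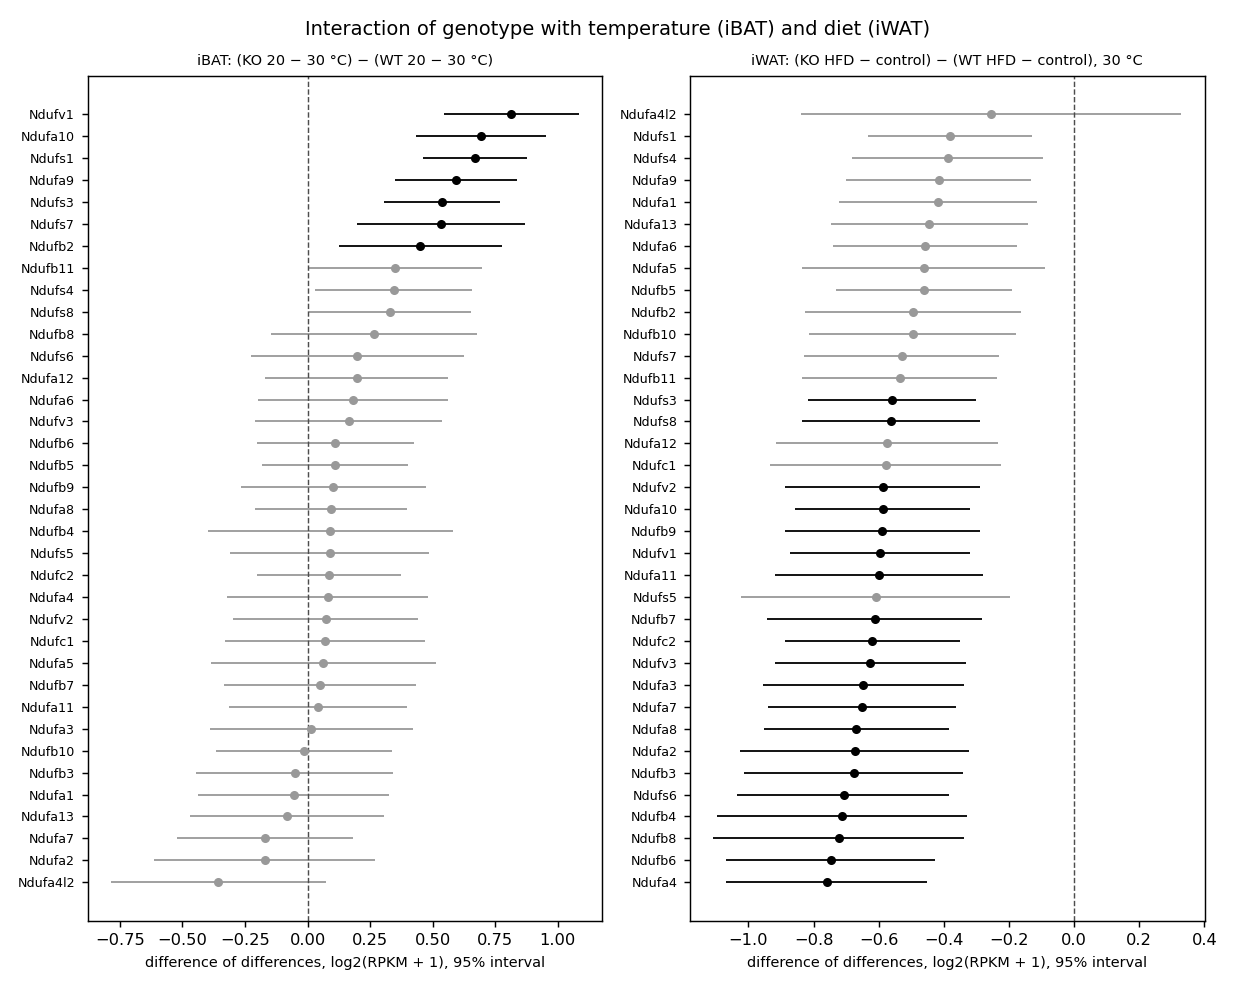
Interaction of genotype and temperature in iBAT and of genotype and diet in iWAT for each of the 36 members on the log2 scale, with 95% intervals; an interaction is the KO effect minus the WT effect. The core subunits Ndufv1 and Ndufs1 and the accessory subunit Ndufa10 lie at the top in iBAT, and all members lie below 0 in iWAT.

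Diet moved few members in iBAT. In KO iBAT Ndufb5 (-0.33 ± 0.10) and Ndufa8 (-0.32 ± 0.11) were lower on high fat diet and none was higher, beside 8.02% of all genes lower and 8.35% higher. Both calls were lost without libraries 30 to 32, when the members' median was 0.029 in place of -0.19. In WT iBAT Ndufa9 was lower (-0.24 ± 0.086, 177 to 256 RPKM on high fat diet and 212 to 286 RPKM on control diet) and Ndufa4l2 higher, beside 14.5% of all genes lower and 18.5% higher. No member had a called interaction of genotype and diet in iBAT (limma-trend), where 2.78% of all genes were called above 0 and 3.78% below. The unadjusted p was under 0.05 for 1 member, Ndufb10, and the share of all genes at that threshold is not given here. Without libraries 30 to 32 1 member was called below 0, beside 1582 of all 14720 genes. The members' median was then 0.024 in place of -0.20.

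In iWAT the subunit genes were higher in KO at 30 °C and at 20 °C. Whether the genotype effect differed between the depots was not tested. At 30 °C 35 of the 36 members were higher in the libraries labelled KO and none lower, with Ndufa4l2 the only one not called. Of all 15897 genes tested in iWAT, 7.54% were higher and 16.2% lower. The members' median was 0.57 against -0.12 for all genes, and the 35 differences called ran from 0.44 for Ndufa7 to 0.81 for Ndufb6, a membrane-arm subunit.

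Ndufv1 had 81.9 to 116 RPKM (median 98.3) in KO against 56.5 to 67.1 RPKM (median 61.1) in WT iWAT at 30 °C (difference 0.67 ± 0.10, adjusted p = 2.7e-06). Ndufs1 had 55.7 to 73.3 RPKM (median 65.8) in KO against 37.7 to 45.3 RPKM (median 43.6) in WT. Ndufb8 had 187 to 287 RPKM (median 232) in KO against 114 to 150.2 RPKM (median 129) in WT. No ranges overlapped for these 3 genes, nor for Ndufs3 (39.9 to 55.0 against 30.7 to 34.9 RPKM), Ndufa9 (65.2 to 92.0 against 45.6 to 61.8 RPKM) or Ndufa4 (219 to 315 against 134 to 184 RPKM). Ndufs4 had barely overlapping ranges, with 61.4 to 94.5 RPKM (median 72.6) in KO and 40.9 to 61.5 RPKM (median 48.1) in WT. After median-ratio scaling 35 members were higher, beside 1610 of all 15897 genes higher and 1144 lower. Of all calls, 58.5% (65.2% after quantile normalization) were then higher in place of 31.7%.

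Markers of other cells moved with this difference. Brown adipocyte markers without Ucp1 summed to 449 to 812 RPKM in KO and 172 to 385 RPKM in WT iWAT at 30 °C, with no overlap. Lymphocyte markers summed to 419.7 to 2076 RPKM in KO and 1899 to 3190 RPKM in WT, and macrophage markers to 322 to 968 and 846 to 1402 RPKM in the same order. Skeletal muscle markers ranged from 19.8 to 8072 RPKM in KO and from 13.5 to 11720 RPKM in WT. The part of these cells in the members' difference was not tested. Without the muscle-rich libraries 35 members were higher in KO, beside 632 of all 15737 genes.

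At 20 °C 29 members were higher in KO than in WT iWAT and none lower, beside 9.85% of all genes higher and 55.0% lower. Over the members the median was 0.44 against -0.27 for all genes. All 3 NADH-module core subunits rose, as did Ndufs3 and Ndufs8 of the ubiquinone module, and 7 of 9 peripheral, 7 of 9 proximal and 9 of 10 distal accessory subunits. Ndufv1 had 180.3 to 313 RPKM (median 203) in KO against 94.1 to 131 RPKM (median 108) in WT (difference 0.96 ± 0.10, adjusted p = 9.0e-11). Ndufs1 had 100.4 to 153 RPKM (median 118) in KO against 57.8 to 80.5 RPKM (median 67.2) in WT, and Ndufa9 107 to 209.9 RPKM (median 124) in KO against 74.2 to 103 RPKM (median 86.8) in WT. The ranges of all 3 were separate, so the lowest KO library exceeded the highest WT library.

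Ndufa10 (0.87 ± 0.10) followed Ndufv1 in size. Ndufb8 had 324 to 646 RPKM (median 348) in KO and 203 to 379 RPKM (median 248) in WT iWAT at 20 °C, with overlap. Not called were Ndufa2 (0.047), Ndufa4l2, Ndufa7 (0.044), Ndufa13, Ndufb2, Ndufc2 and Ndufs7. After median-ratio scaling 35 were higher (median 0.76), beside 3768 of all 15897 genes higher and 4174 lower. Of all calls, 47.4% (50.9% after quantile normalization) were then higher in place of 15.2%. Brown adipocyte markers without Ucp1 summed to 1769 to 4197 RPKM in KO and 399.8 to 930.2 RPKM in WT, and macrophage markers to 238 to 569 RPKM in KO and 557 to 1162 RPKM in WT; whether they set any of the difference was not tested. Library 64 was the highest KO library for 35 members, and without libraries 16, 64 and 87 the count was 26. Of all 15871 genes then tested, 1448 were higher and 8323 lower.

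On high fat diet no member differed between KO and WT iWAT after adjustment (limma-trend), and 0.195% of all genes were called higher and 0.0881% lower. At an unadjusted p under 0.05 there were 3 members, Ndufa4l2 (-0.49), Ndufs1 (0.19) and Ndufa7 (-0.21), of mixed sign. The share of all genes at that threshold is not given here, so these 3 are no result about the members. Ndufv1 had 56.3 to 75.9 RPKM (median 62.3) in KO and 48.6 to 89.7 RPKM (median 57.9) in WT (difference 0.072, 95% interval -0.12 to 0.27). Ndufs1 had 39.7 to 51.7 RPKM (median 45.4) in KO and 31.6 to 62.3 RPKM (median 37.7) in WT, and Ndufb8 111 to 193 RPKM (median 132) in KO and 103 to 208 RPKM (median 132) in WT. The ranges overlapped for all 3. Their median was 0.008, against -0.036 for all genes, and the few calls over all genes were 68.9% higher (83.7% (88.7% after quantile normalization) after median-ratio scaling). With array quality weights 942 genes were called higher and 1688 lower, so that 35.8% of the calls were higher.

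Within KO iWAT the high fat diet went with lower levels. Compared with control diet at 30 °C, 35 members were lower and none higher, with only Ndufa4l2 not called, beside 8.31% of all genes lower and 16.1% higher. The median was -0.59 against 0.093 for all genes. Ndufb9, a distal membrane-arm subunit with a LYR motif, fell most, to 139 ± 17.6 RPKM on high fat diet against 255 ± 25.9 RPKM on control diet (mean ± SD, n = 8 each; difference -0.87 ± 0.11, adjusted p = 3.6e-08). Ndufa4 fell by 0.79 on the log2 scale, Ndufb5 by 0.73 and Ndufa10 by 0.71. Ndufv1 ranges, 56.3 to 75.9 RPKM on high fat diet and 81.9 to 116 RPKM on control diet, did not overlap. Brown adipocyte markers without Ucp1 summed to 138 to 226 RPKM on high fat diet and 449 to 812 RPKM on control diet, with no overlap, and 8 of 11 skeletal muscle markers were lower and 5 of 9 macrophage markers higher. Their part was not tested. After median-ratio scaling 35 were lower, beside 1730 of all 15897 genes lower and 1447 higher. Of all calls, 45.6% (44.2% after quantile normalization) were then higher in place of 65.9%.

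In WT iWAT the diet contrast called 0 of the 36 members (limma-trend), beside 3.84% of all genes lower and 9.69% higher. At an unadjusted p under 0.05 there were 3, Ndufb5 (-0.267), Ndufa6 (-0.275) and Ndufb9 (-0.283). The share of all genes at that threshold is not given here, so this count is no result about the members. Of all calls 71.6% were higher, and 57.1% (62.8% after quantile normalization) after median-ratio scaling. With that scaling 1 member was called lower, beside 787 of all 15897 genes. The members' median was -0.002. Ndufv1 differed by -0.009 with a 95% interval of -0.20 to 0.19. Library 87, a WT library on high fat diet, had the highest level of its group in Ndufv1, Ndufs1, Ndufa9, Ndufb8, Ndufs4 and Ndufa4. Without libraries 16, 64 and 87 there were 6 members lower, beside 687 of all 15871 genes.

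The interaction of genotype and diet in iWAT was called below 0 for 20 members and above 0 for none, beside 1.23% of all genes below and 0.101% above. Their median was -0.59 against 0.075 for all genes, and all 36 lay below 0. Ndufa4 (-0.76 ± 0.15, adjusted p = 0.00706), Ndufa8 (-0.67 ± 0.14, adjusted p = 0.0102) and Ndufb6 (-0.75 ± 0.16, adjusted p = 0.0107) had the smallest adjusted p. Ndufv1 had -0.60 ± 0.14 and Ndufb8 -0.72 ± 0.19. By role the calls were 2 of 3 NADH-module core subunits, 2 core subunits of the ubiquinone module, 4 of 9 peripheral, 5 of 9 proximal and 6 of 10 distal accessory subunits, and Ndufa4. Without the muscle-rich libraries the count was 2, beside 28 of all 15737 genes below 0, while the members' median was -0.64.

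Nearly all members were higher at 20 °C in WT iWAT. At 20 °C 35 were higher than at 30 °C and none lower, again with Ndufa4l2 not called (-0.12), beside 7.25% of all genes higher and 12.4% lower. The median was 0.57 against -0.10 for all genes. Ndufb8 rose most, to 203 to 379 RPKM (median 248) at 20 °C against 114 to 150.2 RPKM (median 129) at 30 °C (difference 0.94 ± 0.14), and Ndufs5, a proximal-arm subunit, by 0.91 ± 0.15. Ndufv1 had 94.1 to 131 RPKM (median 108) at 20 °C against 56.5 to 67.1 RPKM (median 61.1) at 30 °C (difference 0.83 ± 0.10, adjusted p = 3.3e-08). For neither gene did the ranges overlap. Brown adipocyte markers without Ucp1 summed to 399.8 to 930.2 RPKM at 20 °C and 172 to 385 RPKM at 30 °C. Their part was not tested. After median-ratio scaling 35 members were higher, beside 1504 of all 15897 genes higher and 858 lower. Of all calls, 63.7% (64.7% after quantile normalization) were then higher in place of 37.0%.

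In KO iWAT 26 members were higher at 20 °C and none lower, beside 9.02% of all genes higher and 51.4% lower, with a median of 0.43 against -0.25. Ndufv1 (1.13 ± 0.10, adjusted p = 1.1e-12), Ndufa10 (0.96 ± 0.10) and Ndufs1 (0.90 ± 0.088) rose most among the 4 with the smallest p, and Ndufa9 rose by 0.75 ± 0.10. Ndufa2 (0.011), Ndufa7 (-0.078) and Ndufc2 (-0.035) lay near 0 and were not called. Brown adipocyte markers without Ucp1 summed to 1769 to 4197 RPKM at 20 °C and 449 to 812 RPKM at 30 °C, with no overlap, while 6 of 9 macrophage and 6 of 10 lymphocyte markers were lower. Whether these cells set any of the rise was not tested. After median-ratio scaling 34 members were higher (median 0.75), beside 3474 of all 15897 genes higher and 2810 lower. Of all calls, 55.3% (53.6% after quantile normalization) were then higher in place of 14.9%. The interaction of genotype and temperature in iWAT was called for Ndufa2 alone, below 0 (-0.54 ± 0.18, adjusted p = 0.0328), beside 11.1% of all genes below and 2.15% above. That call was lost without a filter on low values and without the muscle-rich libraries. The sign of this interaction over the members depended on the scaling. Its median was -0.18 on the deposited scale and 0.058 after median-ratio scaling. After that scaling 2 members were called above 0 and 0 below, beside 1099 of all 15897 genes above and 242 below. Of all calls, 82.0% (72.5% after quantile normalization) were then above 0 in place of 16.2%.

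**Figure D4:**
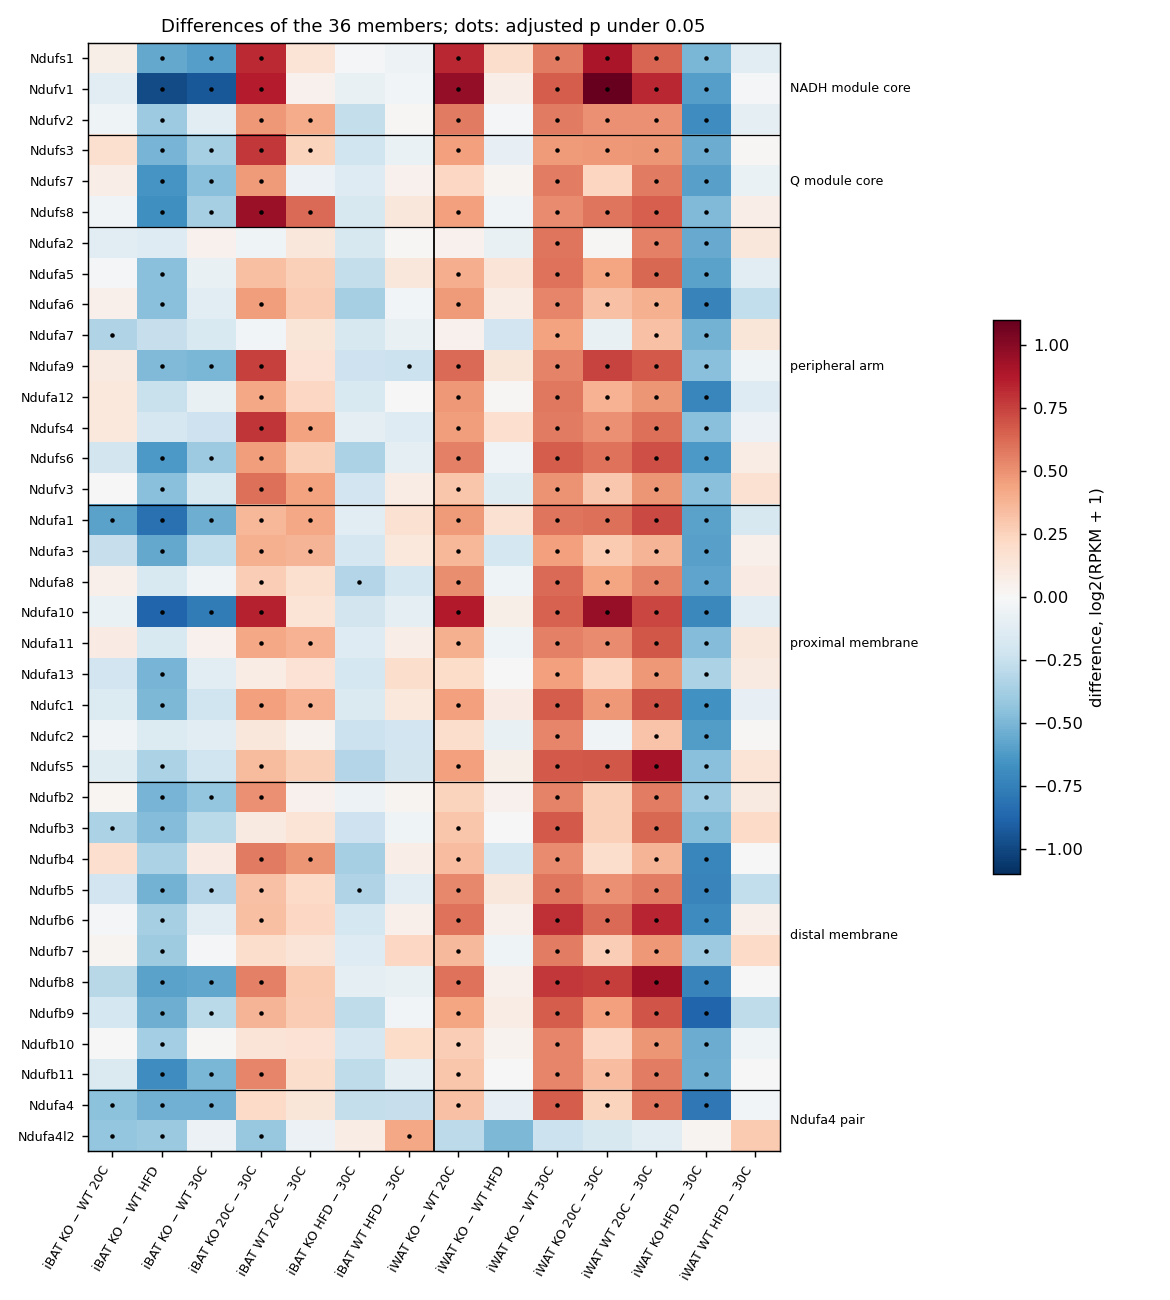
Log2 differences of the 36 members, grouped by role, in the 14 comparisons within a tissue that are not interactions; dots mark adjusted p under 0.05. The iWAT columns for KO minus WT at 20 °C and 30 °C are positive for every member but Ndufa4l2, and the iBAT columns for KO minus WT at 30 °C and on high fat diet are mostly negative.

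Between the depots, every member except Ndufa4l2 was higher in iBAT than in iWAT in each of the 6 genotype and condition pairs. In KO mice the members' median difference was 0.97 at 20 °C (20.2% of all genes higher and 42.7% lower), 1.33 on high fat diet (24.5% higher and 45.0% lower) and 0.94 at 30 °C (26.3% higher and 35.8% lower). In WT mice it was 1.41 at 20 °C (15.8% higher and 64.4% lower), 1.82 on high fat diet (16.7% higher and 61.9% lower) and 1.79 at 30 °C (19.5% higher and 61.8% lower). Ndufv1 differed most in WT mice at 30 °C (2.86 ± 0.10), with 403 to 508 RPKM in iBAT and 56.5 to 67.1 RPKM in iWAT. In KO mice at 20 °C it had 404 to 448 RPKM in iBAT and 180.3 to 313 RPKM in iWAT, and the member with the largest difference was Ndufs8 (1.34 ± 0.11). Ndufa7 and Ndufv3, both of the peripheral arm, had the smallest differences called at 30 °C in both genotypes (0.46 and 0.41 in KO, 1.07 and 1.07 in WT). Without libraries 30 to 32 the median in KO mice at 30 °C was 0.74, with 34 members higher. Of all 16290 genes then tested, 4113 were higher. Whether the gap between depots differed with genotype was not tested.

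Of all genes called between the depots, the share higher in iBAT was 32.1%, 35.3% and 42.4% in KO mice at 20 °C, on high fat diet and at 30 °C, and 19.8%, 21.2% and 24.0% in WT mice. After median-ratio scaling these shares were 40.1% (55.3% after quantile normalization), 38.8% (49.7% after quantile normalization) and 39.2% (51.2% after quantile normalization) in KO mice and 38.5% (56.9% after quantile normalization), 37.9% (54.3% after quantile normalization) and 36.8% (53.8% after quantile normalization) in WT mice. At least 35 members were higher after median-ratio scaling in every pair, beside at most 4768 of all 16310 genes. After quantile normalization 34 were higher in KO mice at 20 °C, 33 in KO mice at 30 °C and 36 in each other pair. At most 6988 of all 16310 genes were higher in a pair after quantile normalization.

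Ndufa4 and Ndufa4l2 differed from each other. Ndufa4, at 365 to 813 RPKM (median 403) in KO and 568 to 944 RPKM (median 669) in WT iBAT at 30 °C, was lower in KO (-0.53 ± 0.14, adjusted p = 0.00115), as on high fat diet (326 to 506 RPKM in KO and 427 to 698 RPKM in WT) and at 20 °C (455 to 803 RPKM in KO and 613 to 1034 RPKM in WT). In iWAT it was higher in KO at 30 °C, as given above, and at 20 °C (261 to 448 RPKM in KO and 188 to 332 RPKM in WT). Its levels within groups followed the other members (r = 0.95), and those of Ndufa4l2 did not. Ndufa4l2 stayed between 1.86 and 10.3 RPKM over all 96 libraries.

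In iBAT Ndufa4l2 was lower in KO at 20 °C (1.87 to 5.23 RPKM (median 3.12) in KO and 3.82 to 6.35 RPKM (median 4.34) in WT, difference -0.42 ± 0.15) and on high fat diet (2.90 to 6.82 RPKM (median 5.22) in KO and 5.90 to 8.64 RPKM (median 6.35) in WT, difference -0.41 ± 0.15). At 30 °C it had 2.78 to 7.77 RPKM (median 5.28) in KO and 4.32 to 5.85 RPKM (median 4.93) in WT and was not called. In KO it had 2.78 to 3.21 RPKM in libraries 30 to 32, below every WT library, and 5.25 to 7.77 RPKM in the other 5. Without those 3 the difference was 0.24 ± 0.15, again not called. It rose with high fat diet in WT iBAT, where the ranges on the diets did not overlap (difference 0.43 ± 0.15, adjusted p = 0.0253). No iWAT comparison called it, with 2.39 to 4.37 RPKM in KO and 2.23 to 7.03 RPKM in WT at 20 °C, 1.86 to 9.46 and 2.92 to 10.3 RPKM on high fat diet, and 2.96 to 6.25 and 3.12 to 6.00 RPKM at 30 °C. Values this low carry more counting error than those of the other members.

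Nuclear genes of the other respiratory complexes were described beside the members. In KO against WT iBAT at 30 °C, 4 of 4 genes of complex II fell, 6 of 9 of complex III, 10 of 12 of complex IV and 5 of 14 of the ATP synthase, with 2 ATP synthase genes called higher, beside 10.5% of all genes lower and 54.2% higher. Without libraries 30 to 32 the counts lower were 4, 9, 11 and 10 in the same order, beside 1803 of all 14720 genes. Uqcrc1, a core protein of complex III, differed by -0.79 ± 0.09, Sdhb, the iron-sulfur subunit of complex II, by -0.63 ± 0.10, and Atp5b, the catalytic beta subunit of ATP synthase, by -0.60 ± 0.12. In KO against WT iWAT at 30 °C, 4 of 4, 9 of 9, 11 of 12 and 13 of 14 genes of these complexes rose in the same order of complexes, beside 7.54% of all genes. At 20 °C the counts were 4 of 4, 9 of 9, 11 of 12 and 8 of 14, with 3 ATP synthase genes lower, beside 9.85% of all genes higher and 55.0% lower. In KO iWAT on high fat diet against control diet, 4 of 4, 9 of 9, 11 of 12 and 13 of 14 fell, beside 8.31% of all genes.

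Assembly factors, which build complex I without staying in it, were counted over 14 genes. In KO against WT iBAT at 30 °C 10 fell and 1 rose, beside 10.5% of all genes lower and 54.2% higher, led by Ndufaf7 (-0.53 ± 0.07, adjusted p = 8.9e-09), a methyltransferase, and Ecsit (-0.49 ± 0.08). Leaving out libraries 30 to 32, 11 fell and 0 rose, beside 1803 of all 14720 genes lower and 7729 higher. Their interaction of genotype and temperature in iBAT was called above 0 for 10 and below 0 for 0, beside 11.9% of all genes above and 40.5% below, with Ecsit at 0.65 ± 0.11. In KO against WT iWAT at 20 °C 11 rose, beside 9.85% of all genes, Ndufaf4 by 0.82 ± 0.10, and at 30 °C 9, beside 7.54%, with Ndufaf4 at 0.67 ± 0.10.

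Of the complex I subunits encoded in mitochondrial DNA, ND3, ND4L, ND5 and ND6 were tested. All 4 were lower in KO iBAT at 30 °C, with a median difference of -1.15 (-1.28 without libraries 30 to 32), beside 10.5% of all genes lower. ND5 had 3235 to 5749 RPKM in KO and 7861 to 13340 RPKM in WT (difference -1.29 ± 0.15, adjusted p = 1.0e-09), and ND4L 9208 to 17650 RPKM in KO and 14420 to 23340 RPKM in WT. On high fat diet the median was -1.25, and at 20 °C -0.62, with all 4 lower in both. In iWAT at 30 °C all 4 were higher in KO, with a median of 0.56. ND5 and ND6 lie on opposite strands but had nearly equal values. The reason was not tested, so they may not be separate measurements. ND3 had at most 3.95 RPKM in these iBAT groups.

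Ndufab1 had 20.3 to 29.0 RPKM in KO and 27.4 to 37.8 RPKM in WT iBAT at 30 °C (difference -0.41 ± 0.071, adjusted p = 2.6e-06; -0.49 ± 0.077 without libraries 30 to 32) and was higher in KO iWAT at 20 °C (1.18 ± 0.11) and 30 °C (0.70 ± 0.11). Among other enzymes that feed ubiquinone, Gpd2, the mitochondrial glycerol-3-phosphate dehydrogenase, was lower in KO iBAT at 30 °C (-1.18 ± 0.17; -1.37 ± 0.18 without libraries 30 to 32) and higher in KO iWAT at 30 °C (1.07 ± 0.14). Etfdh, the electron-transfer flavoprotein dehydrogenase, was higher in KO iWAT at 20 °C (1.23 ± 0.10) and 30 °C (0.83 ± 0.10).

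Regulators of mitochondrial genes did not move as a block. In KO iBAT at 30 °C 5 of 14 rose and 5 fell, beside 54.2% of all genes higher and 10.5% lower. With libraries 30 to 32 left out, 6 rose and 6 fell, beside 7729 of all 14720 genes higher and 1803 lower. Gabpb1, a subunit of the ETS-family factor GABP, rose (0.53 ± 0.061) and the nuclear receptor gene Esrrg fell (-1.23 ± 0.15). Ppargc1a, the coactivator of mitochondrial biogenesis, had an interaction of genotype and temperature of 3.19 ± 0.34 in iBAT (adjusted p = 3.1e-10), and Esrrg one of 1.03 ± 0.21. In KO iWAT at 20 °C Ppargc1a (1.54 ± 0.13) and Esrrg (1.05 ± 0.088) were higher than in WT, and at 30 °C Esrrg (0.52 ± 0.088) and Esrra (0.67 ± 0.13) were. On high fat diet against control diet in KO iWAT, Ppargc1b (-0.77 ± 0.12), Ppara (-1.15 ± 0.20) and Esrra (-0.69 ± 0.13) were lower. Of 10 genes taken as measures of mitochondrial mass, such as Immt, which organises the cristae, and Cs, the citrate synthase, 2 rose and 1 fell in KO iBAT at 30 °C (beside 54.2% of all genes higher and 10.5% lower), 0 rose and 3 fell there without libraries 30 to 32, and 7 rose and 0 fell in KO iWAT at 30 °C, beside 7.54% of all genes higher and 16.2% lower.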

How the data were processed

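The authors deposited a single table of RPKM values (reads per kilobase of transcript and per M reads) for 168326 transcript rows and 96 libraries, made from stranded mRNA libraries per the labels' protocols. CASAVA and bcl2fastq are listed in the submitters' processing notes. Aligner, counting step and genome build are, however, not given in the sources used here. Rows without an Entrez gene identifier were left out, and each symbol took its row of highest mean. Depth, recovered from the spacing of low values (94.9 to 95.7% whole within 0.05 read), was 8.91 to 19.2 M reads; higher depth lowers counting error. For 7 of the 36 members the row was, or equalled, a RefSeq row; other rows can be non-coding isoforms, and reads can be counted for several transcripts.

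Genes with at least 0.5 RPKM in 8 libraries of a fit were tested on the log2(RPKM + 1) scale by limma-trend (limma 3.58.1, R 4.3.3). Tests planned for counts were not used, since the file holds RPKM. Fits within a tissue had 6 group means (48 libraries) and those between depots 12 group means (96 libraries, 16310 genes), with Benjamini-Hochberg adjustment over all genes and a threshold of 0.05. Errors after ± are standard errors beside log2 differences and SDs beside RPKM. Fold changes on this scale understate those of low genes. All 36 members described could be named, and 1 gene of the 37 found by the rule is not reported here; 7 members were given with levels in the groups, beside those with the smallest p or the largest change in a comparison. Members and gene lists were chosen with earlier results of these data known. Settings tried were another pseudocount, no filter, 2 scalings, fits of only the groups compared, summed or RefSeq rows, array weights, an exact permutation test and left-out libraries. The test was checked on simulated data.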

Additional observations from a re-analysis of the deposited data

Results flagged for a closer look

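Samples far from the others of their group were looked for in 96 groups of 8 (7 genes and the members' mean log2 in 12 groups), and 16 were found with Dixon's criterion. Chance gives about 1 in 20 groups, and the genes share libraries, so these are not independent. Library 87 (WT iWAT on high fat diet) was highest for Ndufv1 (89.66 RPKM), Ndufs1 (62.27), Ndufa9 (72.39), Ndufb8 (207.9), Ndufs4 (65.71), Ndufa4 (212.9) and the members' mean (6.303). Library 64 (KO iWAT at 20 °C) was highest for Ndufa9 (209.9 RPKM), Ndufb8 (645.6), Ndufa4 (447.8) and the members' mean (7.436). Library 16 (KO iBAT at 20 °C) was highest for Ndufa4 (803.1 RPKM) and the members' mean (8.18). Library 18 (WT iBAT at 30 °C) was highest for Ndufa4 (943.9 RPKM), library 79 (KO iWAT at 30 °C) highest for Ndufa4l2 (6.249 RPKM) and library 68 (WT iWAT at 30 °C) lowest for Ndufs1 (37.7 RPKM).

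The effect of temperature differed between KO and WT iBAT, by the interaction test, for 7 members, among them Ndufv1 (0.815), Ndufs1 (0.669) and Ndufa9 (0.594) on the log2 scale. All 7 were above 0, beside 11.9% of all genes above and 40.5% below. In iWAT 1 member, Ndufa2, had such an interaction, below 0, beside 11.1% of all genes below and 2.15% above. It was not called without a filter on low values or without the muscle-rich libraries. The effect of diet differed between KO and WT iWAT for 20 members, with Ndufv1 at -0.596, Ndufb8 at -0.723 and Ndufa4 at -0.76. All 20 were below 0, beside 1.23% of all genes below and 0.101% above. Without the muscle-rich libraries 2 members were called.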

How the results depend on the processing

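The sign of the members' median turned in 6 of the 24 comparisons under at least 1 setting other than leaving out 1 library, and several counts moved; the cause was not tested. It turned for the iBAT interaction of genotype and temperature without the muscle-rich libraries (0.098 to -0.021), for that of genotype and diet (-0.199 to 0.024) and the KO diet contrast (-0.192 to 0.029) in iBAT without libraries 30 to 32, for the WT iBAT diet contrast after quantile normalization (-0.016 to 0.018), for the iWAT interaction of genotype and temperature after median-ratio scaling and for the WT iWAT diet contrast (-0.002) with summed or RefSeq rows and without the muscle-rich libraries (up to 0.043). In KO minus WT iBAT at 30 °C (15 lower, median -0.22) the count lower and the median were 31 and -0.503 after median-ratio scaling, 30 and -0.412 after quantile normalization, 29 and -0.395 with array quality weights, and 30 and -0.461 without libraries 30 to 32. Over all 14807 genes, 1558 were lower in the main setting, 3561 after median-ratio scaling, 4913 after quantile normalization and 1917 with array quality weights. Counts of members in this section are therefore not to be set against the all-gene shares of the main setting. On high fat diet the median was -0.75 after median-ratio scaling. At 20 °C 8 were lower after median-ratio scaling and 9 after quantile normalization, and 1 was higher with array weights. Of all 14807 genes, 2980 and 3227 were lower after these scalings, and 4180 were higher with array weights. In KO iBAT, 20 °C minus 30 °C, the median was 0.781 after median-ratio scaling, 0 members were lower after both scalings and with only the groups compared, and 13 were higher without the muscle-rich libraries. In WT iBAT 27 were higher after median-ratio scaling. The iBAT interaction of genotype and temperature called 11 above 0 after quantile normalization, 14 above and 1 below with array weights, and again 14 above and 1 below without libraries 30 to 32. That of genotype and diet in iBAT called 1 below 0 under quantile normalization, array weights and without libraries 30 to 32.

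For high fat minus control diet, WT iBAT had 3 higher and 4 lower after quantile normalization and 4 lower with array weights. KO iBAT had 8 lower after quantile normalization, 1 with array weights, 4 without the muscle-rich libraries, and 0 with only the groups compared and without libraries 30 to 32. WT iWAT had 1 lower after median-ratio scaling, 5 after quantile normalization, 4 with array weights (1 higher), 6 without libraries 16, 64 and 87, and 1 higher and 1 lower with only the groups compared.

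In iWAT, KO minus WT on high fat diet had 2 lower with array weights and 1 higher without libraries 16, 64 and 87. The median at 20 °C was 0.761 for KO minus WT, and that of 20 °C minus 30 °C in KO 0.745, after median-ratio scaling. The iWAT interaction of genotype and temperature called 0 below 0 without a filter or the muscle-rich libraries, 2 above and 0 below after median-ratio scaling (median 0.058), 2 below after quantile normalization, 1 above and 3 below with array weights, and 5 below without libraries 16, 64 and 87. That of genotype and diet called 36 below 0 with array weights, when 1671 of all genes were called below and 3035 above in place of 196 and 16, and 2 without the muscle-rich libraries. Median depot differences after median-ratio scaling were 1.833 (WT at 20 °C), 2.122 (WT at 30 °C) and 2.179 (WT on high fat diet). After quantile normalization they were 1.667 (WT at 30 °C), 0.632 (KO at 20 °C) and 0.723 (KO at 30 °C), and without libraries 30 to 32 0.735 (KO at 30 °C).

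Ndufa4l2 reversed in KO iBAT, 20 °C minus 30 °C, under quantile normalization (0.056, adjusted p = 0.74). Of the other values for the 7 named genes, 1638 stayed on their side of the threshold, 63 passed it and 12 no longer did, and 57, called under neither setting, changed sign. The RefSeq row and the settings that leave out libraries were chosen after seeing the data. No paired analysis was possible because library numbers run from 1 to 96 and no label pairs libraries. RPKM cannot separate a change in a few abundant transcripts from one in all others, and low genes such as Ndufa4l2 rest on few reads.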
